A study of Homo sapiens with 3 samples.

Results

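The death receptor pathway was examined in H2030-BrM3, a brain-metastatic subline of H2030 human lung adenocarcinoma cells, after depletion of PARP1 by short hairpin RNA. The members were 10 genes fixed by symbol: the receptors FAS, TNFRSF10A, TNFRSF10B, TNFRSF10D and TNFRSF1A, the adaptors FADD and TRADD, the protease CASP8, its inhibitor CFLAR and the kinase RIPK1. Every probe that the platform annotation gives 1 of these symbols was taken, which found 15 probes of 9 genes among 47309 probes and 20044 named genes on the array. For RIPK1 no probe was found, and it was not analysed here. 12 of the 15 probes, covering all 9 genes, were above background on all 3 arrays, where background means a detection p of 0.01 or more in the deposited table. The other 3 probes were below background on every array.

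The series holds 3 Illumina HumanHT-12 V4 arrays of total RNA, 1 from cells with PARP1 hairpin 1, 1 from cells with PARP1 hairpin 2 and 1 from cells with a non-targeting hairpin, the control. All cells were the same line and were cultured for 1 day in RPMI medium with fetal bovine serum, per the labels. The labels do not say that the arrays came from separate cultures, so p-values measure the spread between samples alone, and that spread may be technical. With a single control array, the spread is read only from the gap between the hairpin arrays. These carry different hairpins, so differences between the hairpins are part of it. No added death ligand or drug is named in the labels for any of the 3 samples.

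Death receptors are cell surface proteins of the tumour necrosis factor receptor family that carry a death domain inside the cell. When FAS ligand or TRAIL (the product of TNFSF10) binds, the adaptor FADD recruits and activates CASP8, which starts a cascade of executioner caspases, and PARP1 protein is a well known substrate cleaved in that cascade. TNFRSF1A binds TNF and recruits TRADD and RIPK1, which leads mainly to NF-kB activation and, when that branch fails, to a second complex with FADD and CASP8.

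To show the regulatory sequence of members on which the results turn, 4 upstream windows are printed. FAS and CFLAR had 2 of the 3 lowest mean changes, and FADD and TNFRSF1A had the 2 smallest standard errors. Windows were taken for 6 members. None was taken for TNFRSF10A, the other of the 3 lowest, or for TNFRSF10B, TNFRSF10D and TRADD. Each window is the 250 bases before the most upstream annotated start, 5′ to 3′ on the gene's strand, from RefSeq on GRCh38.p14. The FAS window lies at chr10:88990548-88990797, plus strand. The CFLAR window lies at chr2:201118466-201118715, plus strand. The FADD window lies at chr11:70203046-70203295, plus strand, and the TNFRSF1A window at chr12:6342077-6342326, minus strand. Capitals mark matches, on either strand, to GGGCGG (a GC box, the motif of SP1), GGGNNTTCC (an NF-kB-type motif) or TGANTCA (an AP-1-type motif).
FAS: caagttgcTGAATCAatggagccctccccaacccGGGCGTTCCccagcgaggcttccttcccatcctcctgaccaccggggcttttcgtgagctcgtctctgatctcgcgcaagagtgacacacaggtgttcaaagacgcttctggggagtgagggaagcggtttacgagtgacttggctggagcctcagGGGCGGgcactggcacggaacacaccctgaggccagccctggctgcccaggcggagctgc
CFLAR: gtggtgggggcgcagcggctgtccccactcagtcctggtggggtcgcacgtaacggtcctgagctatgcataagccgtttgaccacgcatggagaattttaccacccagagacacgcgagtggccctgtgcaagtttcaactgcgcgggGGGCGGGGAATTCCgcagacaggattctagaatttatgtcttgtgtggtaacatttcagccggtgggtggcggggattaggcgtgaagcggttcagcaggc
FADD: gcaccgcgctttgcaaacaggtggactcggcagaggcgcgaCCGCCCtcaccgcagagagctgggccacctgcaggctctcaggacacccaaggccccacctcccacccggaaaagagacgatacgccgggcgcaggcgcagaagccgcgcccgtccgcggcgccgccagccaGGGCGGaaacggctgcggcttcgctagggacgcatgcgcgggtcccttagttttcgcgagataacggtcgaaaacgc
TNFRSF1A: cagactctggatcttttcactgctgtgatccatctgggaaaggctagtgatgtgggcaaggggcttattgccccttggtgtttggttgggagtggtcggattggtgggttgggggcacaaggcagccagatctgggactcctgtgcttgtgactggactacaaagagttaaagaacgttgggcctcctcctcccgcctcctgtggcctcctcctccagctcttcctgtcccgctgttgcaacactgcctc

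The FAS window held 1 match to each motif: TGANTCA began 242 bases, GGGNNTTCC 216 bases and GGGCGG 60 bases before the start. In the CFLAR window the GC box began 101 bases and the NF-kB-type match 96 bases before the start, and the matches overlap by 1 base. The FADD window had 2 GC boxes, 209 and 77 bases before the start, and the TNFRSF1A window had no match to any of the 3 motifs. CASP8, whose first window is not printed, had a GC box 96 bases and an NF-kB-type match 77 bases before its most upstream start. Over all 35114 RefSeq windows of the same 250 bases, 42.6% held GGGCGG, 5.78% held GGGNNTTCC and 6.57% held TGANTCA. The other windows of FAS, CASP8 and CFLAR, at their further starts, held 0 matches to GGGNNTTCC. TGANTCA was found there 61 bases before a further CASP8 start and 160 bases before a further CFLAR start. GGGCGG was found in further windows of FAS and CFLAR. The NF-kB-type motif was chosen after the windows had been read, FAS has 3 annotated starts, CASP8 3 and CFLAR 4, and a match is a description of the letters only.

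PARP1, the targeted gene, had deposited signals of 1312 with hairpin 1 and 765.8 with hairpin 2, against 4365 in the control. After normalization 28.3% and 12.9% of the control level were left. Its mean log2 change was −2.39 ± 0.28 (moderated SE, 2 arrays against 1), with an adjusted limma p of 0.00595 over the 18263 probes tested. That call was lost in 4 of 12 other processing settings, with adjusted p from 0.546 to 0.997. Across the array 2 probes passed (0.011% of those tested), those of PARP1 and CTBP2, both lower. The share above background was 34.6% with hairpin 1, 36.8% with hairpin 2 and 35.6% in the control. Of 9 markers of epithelial and lung cells, EPCAM, KRT8, KRT18 and MUC1 were above background on all 3 arrays, while CDH1, KRT7, KRT19, NKX2-1 and SFTPB were below it on all 3. Of 6 immune markers CD68 was above background on all 3 arrays, LYZ on 2, and PTPRC, CD3E, CD14 and MS4A1 on none, and of 7 endothelial and stromal markers COL1A1 alone was above it on any array.

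No death receptor probe passed the test. FAS, TNFRSF10A and CFLAR had the lowest values relative to control, with mean log2 changes of −0.48, −0.28 and −0.27, and the other 9 probes lay between −0.15 and 0.09. Of the 12 tested probes 0 had an adjusted p under 0.05 in limma, 0 had an unadjusted p under 0.05 (4.3% of all tested probes did), and 0 were past 1.5-fold with both hairpins in 1 direction (1.54% of all). By hairpin 1 alone 1 probe, FAS, lay at least 1.5-fold away (4.71% of all), and by hairpin 2 alone 0 did (5.43%). The mean log2 change was below 0 for 9 probes and above 0 for 3, against 9101 and 9162 of all probes tested. The median of the 12 was −0.06, against 0.00 over all probes tested. By hairpin, their median log2 ratio was −0.01 with hairpin 1 and −0.10 with hairpin 2, so the lower median came mainly from hairpin 2. Over all probes tested both medians were 0.00. The members were chosen with earlier results of these data known, and the contrast of the set with all probes was not tested. Both ratios of a probe share the 1 control array, so a control value that is off moves both the same way.

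**Figure D1:**
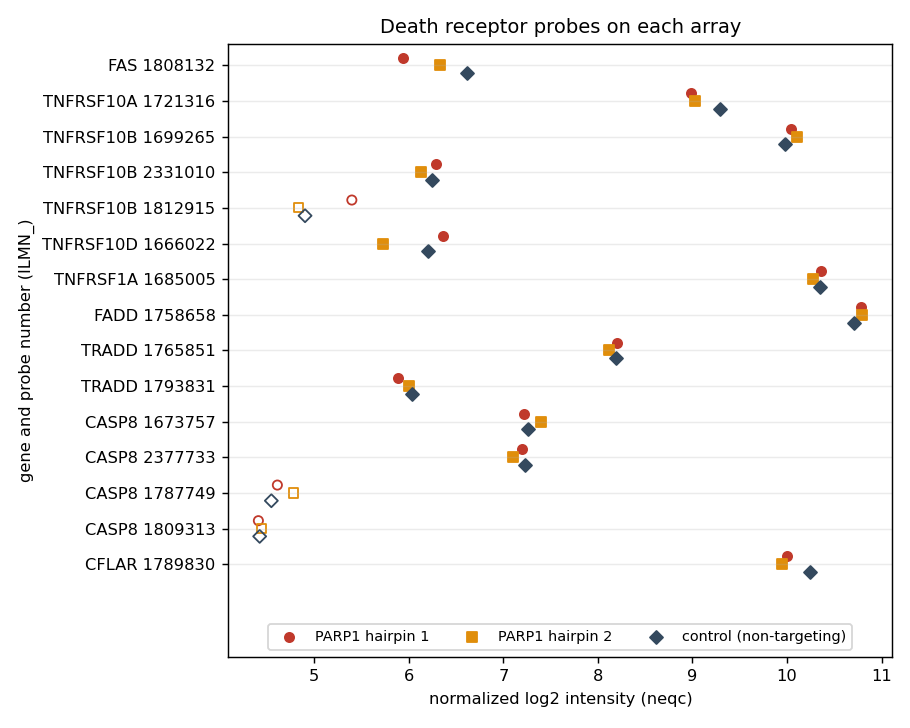
Normalized log2 intensity (x axis) of all 15 death receptor probes (y axis, gene and probe number) on the hairpin 1, hairpin 2 and control arrays, 1 point per array; open symbols are below background. FAS, TNFRSF10A and CFLAR show both hairpin points left of the control point, with log2 ratios to the control of −0.67 and −0.29, −0.30 and −0.27, and −0.24 and −0.30 for hairpins 1 and 2. Levels of different probes are not comparable with each other.

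Among the receptors, FAS and TNFRSF10A had the lowest values relative to control. FAS, the receptor of FAS ligand, was read by 1 probe (ILMN_1808132) with deposited signals of 183.9 with hairpin 1 and 220.9 with hairpin 2, against 219.4 in the control. Only hairpin 1 was below the control in these unadjusted signals, and the hairpin 2 array was brighter as a whole, with a median signal of 161.7 against 153.6 in the control. The signals were close to background, with detection p of 0.00649 with hairpin 1, 0.0013 with hairpin 2 and 0.0013 in the control. After background correction and quantile normalization the log2 intensities were 5.94 and 6.33 with hairpins 1 and 2, against 6.61 in the control. Both hairpin values were then below the control, at 62.8% and 81.9% of it.

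The mean log2 change of FAS was −0.48 ± 0.28 (moderated SE, 2 arrays against 1), 1.39-fold lower, with a 95% interval from −1.08 to 0.12. Its unadjusted limma p was 0.11 and its adjusted p 0.997. The gap between the hairpin arrays was 0.38 log2 units, and 3.13% of all tested probes had a lower mean change. Without background correction the mean change was −0.19, and on the deposited normalized table it was also −0.19.

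TNFRSF10A, the TRAIL receptor DR4, had deposited signals of 605.1 and 710.2 with hairpins 1 and 2, against 718.4 in the control (ILMN_1721316). In these unadjusted signals hairpin 2 lay near the control and apart from hairpin 1. After normalization the log2 intensities were 8.99 and 9.02 with the hairpins and 9.29 in the control. Only then did the hairpin arrays lie close together, both below the control. Its mean log2 change was −0.28 ± 0.15, 1.22-fold lower, with a 95% interval from −0.60 to 0.03. The unadjusted limma p was 0.0722 and the adjusted p 0.997.

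TNFRSF10B, the other TRAIL receptor with a death domain (DR5), had a mean change above 0 by its brightest probe. That probe (ILMN_1699265) had log2 intensities of 10.05 and 10.11 with hairpins 1 and 2, against 9.98 in the control, a mean change of 0.09 ± 0.14 with an interval from −0.20 to 0.38. A second, dimmer probe (ILMN_2331010) read 6.29 and 6.13 with the hairpins and 6.24 in the control, so the control lay between the hairpins. The third (ILMN_1812915) was below background on all 3 arrays and gives no fold. The difference between TNFRSF10A and TNFRSF10B was not tested.

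TNFRSF10D, a decoy TRAIL receptor whose truncated death domain does not signal cell death, was the member on which the hairpins differed most. Its log2 intensity was 6.36 with hairpin 1 and 5.73 with hairpin 2, against 6.20 in the control (ILMN_1666022). The hairpin arrays thus lay on opposite sides of the control, 0.63 apart, with a mean change of −0.15 ± 0.33. Its deposited signals of 203.5, 190.4 and 196.7 on the hairpin 1, hairpin 2 and control arrays were, like those of FAS, near background.

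TNFRSF1A, the main TNF receptor of most cells, had a mean change smaller than its SE. It read 10.36 and 10.27 with hairpins 1 and 2, against 10.35 in the control (ILMN_1685005), a mean log2 change of −0.03 ± 0.13. The 95% interval ran from −0.32 to 0.25, or from 0.802-fold to 1.19-fold of the control.

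**Figure D2:**
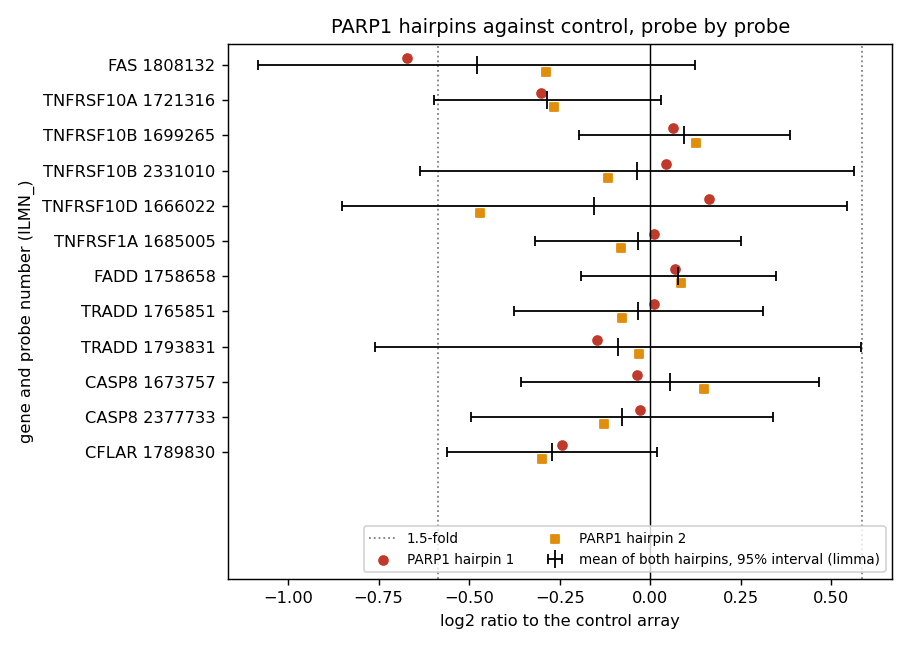
Log2 ratio to the control array (x axis) of the 12 death receptor probes above background (y axis): points are hairpin 1 and hairpin 2, bars are the mean of both with the 95% interval from limma, and dotted lines mark 1.5-fold. All 12 intervals include 0. FAS has the lowest mean, −0.48, and TNFRSF10D the widest interval, from −0.85 to 0.54.

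The adaptors differed from the control by less than their error. FADD, which links FAS and the TRAIL receptors to CASP8, had log2 intensities of 10.78 and 10.80 with hairpins 1 and 2, against 10.71 in the control (ILMN_1758658). Both hairpin values were slightly above the control, with a mean change of 0.08 ± 0.13 and a 95% interval from 0.875-fold to 1.27-fold. The deposited FADD signals were 1799 and 2075 with the hairpins and 1728 in the control. TRADD, the first adaptor of TNFRSF1A, read 8.20 and 8.12 with the hairpins, against 8.19 in the control by its brighter probe (ILMN_1765851), a mean change of −0.03 ± 0.16. Its dimmer probe (ILMN_1793831) gave log2 ratios of −0.15 and −0.03 with hairpins 1 and 2, for a mean of −0.09 ± 0.32.

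CFLAR, the catalytically inactive relative of CASP8 known as FLIP, which blocks CASP8 at the receptor, lay below the control with both hairpins. Its deposited signals were 1099 and 1217 with hairpins 1 and 2, against 1277 in the control (ILMN_1789830), the only CFLAR probe. In these unadjusted signals hairpin 2 was nearer to the control than hairpin 1. After normalization it was the further, with log2 intensities of 10.00 and 9.95 with hairpins 1 and 2, against 10.25 in the control. The gap between the hairpin arrays was 0.05 log2 units, and their ratios to the control were −0.24 and −0.30. The mean change was −0.27 ± 0.14, 1.21-fold lower, with an interval from −0.56 to 0.02. Its unadjusted limma p of 0.0646 was the lowest of the 12 probes, and its adjusted p was 0.997. A single probe cannot tell the long and short FLIP isoforms apart.

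CASP8, the initiator caspase of the receptor complex, had 4 probes, of which 2 were above background. By one (ILMN_1673757) it read 7.22 and 7.40 with hairpins 1 and 2, against 7.26 in the control, a mean change of 0.05 ± 0.19. By the other (ILMN_2377733) it read 7.20 and 7.10 with the hairpins, against 7.23 in the control, a mean change of −0.08 ± 0.20. The 2 probes had mean changes of opposite sign, each smaller than its SE. The remaining probes (ILMN_1787749 and ILMN_1809313) had detection p from 0.231 to 0.948 and give no fold.

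The error of a probe followed its brightness. All tested probes were split by mean intensity into 5 bins of equal size. The SD of the log2 difference between the hairpins was 0.44 in the dimmest bin and 0.15 in the brightest. Of the death receptor probes 2 fell in the dimmest bin, 4 in the next, 1 in the middle, 4 in the bin above it and 1 in the brightest. The moderated SE of the 12 ran from 0.13 for FADD to 0.33 for TNFRSF10D. With 2 arrays against 1, an exact permutation test of a single probe cannot go below a p of 0.333.

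**Figure D3:**
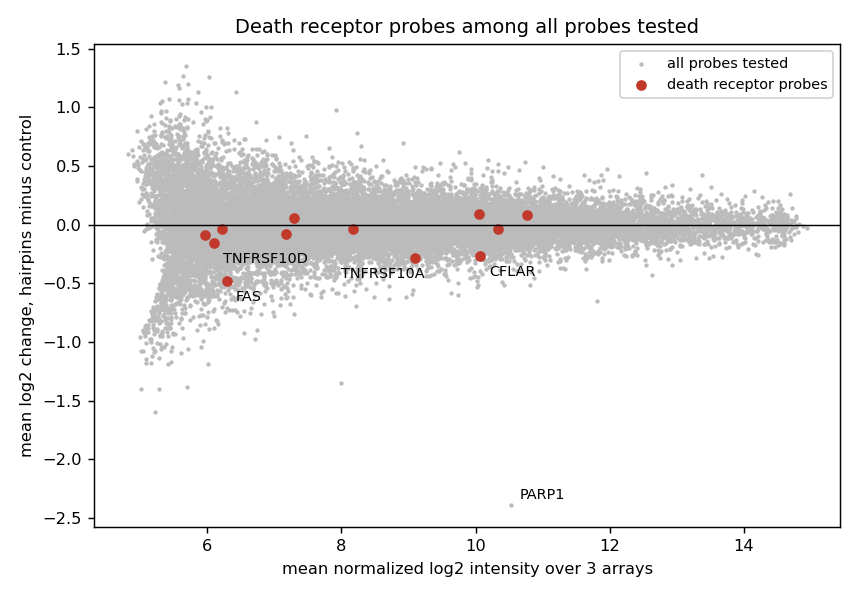
Mean log2 change, hairpins minus control (y axis), against mean normalized log2 intensity over the 3 arrays (x axis) for all 18263 probes tested (grey) and the 12 death receptor probes (red). The death receptor probes lie within the grey cloud, which is wider at low intensity, and PARP1 lies apart at −2.39.

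FAS, TNFRSF10A and CFLAR had mean changes below 0 in all 12 other processing settings tried. None of the 3 passed the adjusted test in any. Each was read by a single probe. Settings that change only the filter, the variance prior or the combining of probes could therefore not move its value. Only another background correction, offset or normalization, or the deposited table, could do so. FAS ranged from −0.49 to −0.19, TNFRSF10A from −0.29 to −0.23 and CFLAR from −0.28 to −0.24. The value of FAS moved most of these 3. A kept sign does not set them apart from the other members. TNFRSF1A, for example, was also below 0 in all 12 settings, from −0.05 to −0.03.

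**Figure D4:**
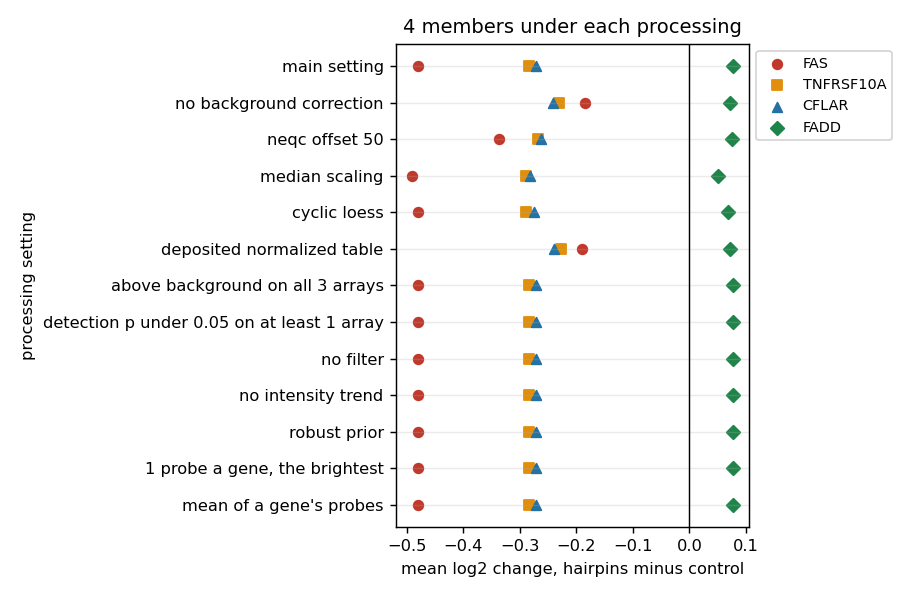
Mean log2 change, hairpins minus control (x axis), of FAS, TNFRSF10A, CFLAR and FADD under the main setting and 12 alternatives (y axis). Alternatives that change only the filter, the variance prior or the combining of probes leave these values unchanged by construction. FAS moves between −0.49 and −0.19, while TNFRSF10A stays between −0.29 and −0.23, CFLAR between −0.28 and −0.24 and FADD between 0.05 and 0.08.

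The genes whose pair of ratios to the control lay nearest to that of FAS (−0.67 with hairpin 1 and −0.29 with hairpin 2) were taken by Euclidean distance over the 9696 other genes above background on all 3 arrays. They were YOD1, a deubiquitinase (−0.71 and −0.28), TIAL1, an RNA-binding protein (−0.66 and −0.25), the small nucleolar RNA SNORA80A (−0.70 and −0.32), the chemokine CXCL2 (−0.61 and −0.30) and JPT1 (−0.70 and −0.36). The likeness rests on 3 arrays and 1 shared control, and the adjusted limma p of each was 0.997.

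Beyond the members, 94 other genes of the pathway were taken in 7 lists, 71 of which had a probe above background on at least 1 array. Of these 71, 0 passed the adjusted limma test (0.0187% of all 10692 genes did, at 1 probe a gene), 3 had an unadjusted p under 0.05 (3.54% of all), and 0 were past 1.5-fold with both hairpins in 1 direction (0.973% of all). Of 5 ligand genes, FASLG, TNFSF10 and TNF were below background on all 3 arrays. The ligands TNFSF15 and LTA were measured, with log2 ratios of −0.30 and −0.50 and of −0.08 and −0.06 with hairpins 1 and 2. Of 8 further receptors and decoys 3 were above background on at least 1 array. TNFRSF21, the death receptor DR6, was the highest of those above it on all 3, with ratios of 0.24 and 0.16, and TNFRSF6B, a soluble decoy for FAS ligand, was the lowest, with −0.33 and −0.14.

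Of 20 partners of the receptor complexes 14 were tested, 0 passed, and their median mean log2 change was 0.01, against 0.00 over all genes. TRAF5, a TNF receptor adaptor, was the highest (0.18 and 0.54 with hairpins 1 and 2), and XIAP, an inhibitor of caspases, the lowest (−0.06 and −0.29). RIPK3, the kinase of necroptosis, and CASP10, the closest relative of CASP8, were below background on all 3 arrays. Of 16 genes of the executioner and mitochondrial arm 14 were tested and 0 passed, with a median of −0.06. BAK1, a pore-forming BCL2 relative, was the highest (0.31 and 0.29), and HTRA2, a mitochondrial serine protease, the lowest (−0.01 and −0.57, and −0.17 and −0.19 by its other probe).

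Of 13 kinases, adaptors and NF-kB subunits downstream of TNF 12 were tested and 0 passed, with a median of 0.02. NFKB1, the p105 and p50 subunit, was the highest, with ratios of 0.34 and 0.17 and an unadjusted limma p of 0.0375 (adjusted p = 0.997). REL, another subunit, was the lowest, with −0.28 and −0.13 by its brightest probe. A dimmer REL probe had ratios of 0.20 and 0.70. Of 15 NF-kB response genes 14 were tested and 0 passed, with a median of −0.03. BCL2L1, which encodes the survival protein BCL-xL, was the highest (0.19 and 0.38, unadjusted p = 0.032 and adjusted p = 0.997 in limma), while its other probe gave −0.13 and −0.13. CXCL2 was the lowest (−0.61 and −0.30, unadjusted p = 0.0274 and adjusted p = 0.997 in limma).

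FAS and TNFRSF10B are known targets of p53, so 18 other p53 response genes were set beside them. 13 were tested and 0 passed, with medians of 0.06 with hairpin 1 and 0.16 with hairpin 2 and a median mean change of 0.20, against 0.00 over all genes. With genes above background on all 3 arrays only, that median was 0.15, and with no filter on dim probes it was 0.05. SESN1, a stress-responsive inhibitor of mTORC1, was the highest of those above background on all 3 arrays (0.38 and 0.31). CDKN1A, the cell cycle inhibitor p21, was the lowest (−0.30 and −0.19).

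**Figure D5:**
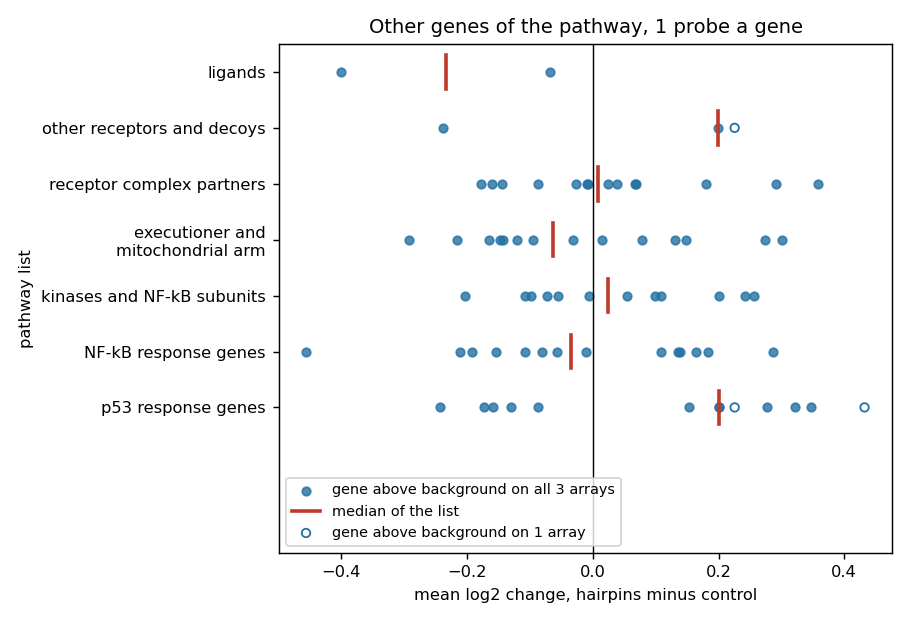
Mean log2 change, hairpins minus control (x axis), of the genes of 7 pathway lists (y axis), 1 probe a gene; red bars are list medians and open points are genes above background on 1 array. No gene of these lists passed the test, and among genes above background on all 3 arrays the values run from −0.46 for CXCL2 to 0.36 for TRAF5.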

How the data were processed

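Total RNA of 3 H2030-BrM3 samples was hybridized to Illumina HumanHT-12 V4 BeadChips, and the authors deposited a bead-averaged intensity per probe from GenomeStudio, per the submitters' processing notes (version not given in the sources used here). The intensity is linear, with no background subtraction and no scaling between arrays. A detection p-value per probe stands beside it, per the file headers. The authors also deposited an intensity table with sorted columns equal to within 0.706, from which quantile normalization is inferred. It was used as an alternative.

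Of 47309 probes 30106 have 1 gene symbol in the platform annotation, 8 several and 17195 none, and 0 symbols needed updating against RefSeq (GRCh38.p14).

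Background was corrected and arrays normalized with neqc (offset 16) of limma 3.58.1 in R 4.3.3. The 18263 probes above background (detection p under 0.01) on 1 or more arrays were fitted with lmFit and eBayes (intensity trend), hairpins against control, with Benjamini-Hochberg adjustment over all of them, called at 0.05. Residual degrees of freedom number 1 and prior ones 14.5, and the single control array is assumed to be as variable as the others. Folds of 1.5 with both hairpins were counted beside it. The fit was tested on simulated data in which every array had the same spread at a given intensity. That simulation could therefore not test the assumption about the control array. The number of arrays limits the precision.

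All member probes were named, then from each list the highest and lowest gene above background on all 3 arrays, any gene past 1.5-fold with both hairpins, and the 5 genes nearest to FAS. Members and lists were chosen with earlier results of these data known.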

Additional observations from a re-analysis of the deposited data

How the results depend on the processing

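The alternatives were other background corrections and offsets, median scaling, cyclic loess, the deposited normalized table, other filters on dim probes, other variance priors, 1 value a gene and each hairpin alone. Of the member probes 0 were called in limma under any of the 12 alternatives that allow a test, and at an unadjusted p under 0.05 there was 1 with median scaling, 1 with no filter and 1 when a gene's probes were averaged, and 0 in the other 9. The number called across the array, 2, became 7 with median scaling and 3 with no filter. With median scaling the prior degrees of freedom were 4243, against 14.5 in the main setting. The number called became 1 when a gene's probes were averaged, and 0 with 4 settings. Those 4, with their counts at an unadjusted limma p under 0.05, were probes above background on all 3 arrays (625), no intensity trend (951), a robust prior (778) and the brightest probe of each gene (375). The 282 probes at least 1.5-fold away with both hairpins became 2 without background correction and 2 on the deposited table, 25 with an offset of 50, 48 above background on all 3 arrays, 450 at a detection p under 0.05, 457 with no filter, 104 for the brightest probe of each gene and 99 for their mean, and were 860 to 991 for 1 hairpin alone. At 2-fold there were 21 and at 1.3-fold 946. The FAS change lay between −0.67 and −0.29 for 1 hairpin alone. The brightest CASP8 probe, at 0.05, gave −0.012 as the mean of 2 probes of opposite sign. No other death receptor probe changed sign in the settings that allow a test. These were 12 for the only or brightest probe of a gene. They were 10 for the dimmer TNFRSF10B, TRADD and CASP8 probes, which have no value of their own with 1 value a gene. By hairpin 1 alone the sign did change for TNFRSF10D (0.16), TNFRSF1A (0.01) and the brighter TRADD probe (0.01). It also changed for the dimmer TNFRSF10B probe (0.04) and the brightest CASP8 probe (−0.04). No paired analysis was possible because there is 1 control array and the hairpin numbers mark no shared sample. Dim signals limit FAS, TNFRSF10D and the dimmer TNFRSF10B and TRADD probes most.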
